A study of Mus musculus with 4 samples.

Results

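Myeloid and lymphoid transcription factors were examined for N6-methyladenosine (m6A), the methyl mark on adenosines inside mRNA, in mouse c-Kit+ cells. The 10 genes were Spi1, Cebpa, Cebpb, Gfi1, Ikzf1, Ikzf2, Id2, Ebf1, Tcf3 and Satb1, out of 21951 protein-coding genes of the GENCODE M21 basic annotation. A peak was given to a gene when its summit, the position of highest enrichment, lay in an exon of that gene. By this rule the 10 genes held 15 of 15635 peaks in replicate 1 and 13 of 14872 peaks in replicate 2. No summit of theirs lay in an exon of another gene.

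The peaks came from m6A meRIP-seq, in which fragmented RNA is pulled down with an antibody to m6A and sequenced beside input RNA that was not pulled down. The series held 4 samples of 1 group, an m6A immunoprecipitation (IP) sample and an input sample for each of replicates 1 and 2. The labels describe Kit+ cells of C57BL/6 mouse foetal liver, enriched on magnetic columns (MACS), and give total RNA for the IP and polyA RNA for the input. In the study's methods the cells were Ythdf2 CTL, the Ythdf2 fl/fl controls of its knockouts, and the replicates were biological. The methods do not name the tissue, and the labelled foetal liver cells were taken to be that preparation. If so, these cells express YTHDF2 as a fusion with GFP, from a floxed allele. Kit is a surface receptor of hematopoietic stem and progenitor cells, and enrichment for it leaves a mixture of progenitors. The age of the embryos is not given in the sources used here.

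m6A is written on nascent transcripts by the METTL3/METTL14 enzyme at adenosines within DRACH (R stands for a purine, D for any base but C, H for any base but G), of which GGAC with A, C or T behind it is a favoured form. It is known to be dense around stop codons and in long last exons, and YTHDF2 binds it and promotes decay of the mRNA. The 10 factors steer blood progenitors toward fates: Spi1 (PU.1) and the C/EBP proteins activate myeloid genes, Gfi1 represses them, and Ikzf1, Tcf3 and Ebf1 act in early lymphoid and B cell development. For PU.1 in particular, the level of the protein is known to bias the choice of lineage.

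All 10 genes carried an exonic summit in at least 1 replicate, as did 37.1% of all protein-coding genes. Both replicates had one in 9 of the 10 genes, beside 30.9% of all protein-coding genes. The exception was Ebf1, which had a peak in replicate 2 only. In replicate 1, 9 of the genes had a peak, beside 34.4% of protein-coding genes, and in replicate 2 all 10 had one, beside 33.5%. A peak needs RNA in the sample to be called, and the peak lists hold no expression level, so the genes were not compared with others of like expression. In these bulk samples fewer cells of a type and less RNA per cell cannot be told apart.

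The sequences below are shown because they are the candidate methylation sites under the peaks: for each peak found in both replicates, the GGAC followed by A, C or T that lay closest to the mean position of its summits. Each is 25 nt of the mRNA, 5′ to 3′ with T for U, from the GENCODE M21 transcripts on GRCm38, and the 5 capitals mark the DRACH motif with its adenosine in the middle. The peaks do not resolve which adenosine is methylated.
Spi1, 5′ UTR, chr2:91096713-91096737, plus strand: caccccaaggGGACTatctcccagt
Spi1, 3′ UTR, chr2:91115461-91115485, plus strand: gacacagggaGGACAttcccagggc
Cebpa, coding sequence, chr7:35120245-35120269, plus strand: agaagtcggtGGACAagaacagcaa
Cebpb, 3′ UTR, chr2:167690135-167690159, plus strand: gagcgcgtgtGGACAcgggactgac
Gfi1, 3′ UTR, chr5:107717013-107717037, minus strand: gctatcagttGGACTtcaacatagc
Ikzf1, coding sequence, chr11:11769511-11769535, plus strand: atcacagccaGGACAggtacgagtt
Ikzf1, 3′ UTR, chr11:11770029-11770053, plus strand: gtgagccagaGGACCagatataagg
Ikzf2, coding sequence, chr1:69538970-69538994, minus strand: gctctctgaaGGACAtctataaggt
Id2, 3′ UTR, chr12:25094373-25094397, minus strand: tctccggcctGGACTgtgataccgt
Id2, coding sequence, chr12:25095949-25095973, minus strand: acagcctgtcGGACCacagcttggg
Ebf1, 3′ UTR, chr11:45004817-45004841, plus strand: tcccagagtgGAACTtttaactcag
Tcf3, 3′ UTR, chr10:80410002-80410026, minus strand: agggctctggGGACActtcagggcc
Satb1, coding sequence, chr17:51740055-51740079, minus strand: gcaagctgaaGGACAactccggctt

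Ebf1, with a peak in 1 replicate, is shown too, with GAACT, since no GGAC lay under its peak and the nearest one was 421 nt from the summit. In Cebpb, in the 3′ UTR peak of Ikzf1 and in the 3′ UTR peak of Id2 the marked adenosine lay almost on the summit. In Cebpb it was 3 nt downstream of the summit in replicate 1 and 2 nt in replicate 2. In the 3′ UTR of Ikzf1 it lay at −1 and −15 nt, and in that of Id2 at 2 and −1 nt. In Spi1 the 3′ UTR site was at −7 nt from the summit in replicate 1 and at 10 nt in replicate 2. In contrast, the GGAC shown for the coding peak of Ikzf1 lay 170 and 241 nt downstream of the summits. That of the Gfi1 3′ UTR lay 109 and 73 nt downstream. In the 5′ UTR of Spi1 the site was at −108 and −83 nt, and in Cebpa at −75 and −82 nt. It was at −70 and −52 nt in Ikzf2, −66 and −71 nt in Tcf3, and −52 and −134 nt in Satb1. In the coding peak of Id2 it was at −16 and −19 nt. Other forms of DRACH lay closer to some of these summits, as at −1 and −18 nt in the coding peak of Ikzf1.

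The myeloid activators were taken first. Spi1 encodes PU.1, the ETS factor needed for macrophages and B cells and kept low in erythroid cells. Its mRNA (chr2:91082390-91115756, 5 exons, transcript Spi1-201) had 2 peaks, 1 at each end, in both replicates. The 5′ peak lay in exon 1, with the summit in the 5′ UTR at −117 nt from the start codon in replicate 1 and −142 nt in replicate 2. Its fold enrichment, the ratio of IP signal to local background at the summit, was 8.01 in replicate 1 and 8.10 in replicate 2. Behind these values stood 56 and 50 IP reads, over a background of 7 and 5 control reads. The difference between the replicates was within the 95% counting interval of either value (6.09 to 10.4, and 6.05 to 10.6), which covers the counting error of the IP reads only. The 3′ peak lay in the last exon, with the summit 87 and 70 nt past the stop codon, and its fold enrichment was 4.71 and 4.55, on 100 and 84 IP reads. The 5′ peak therefore had the higher fold in each replicate, and its counting interval did not overlap that of the 3′ peak. By −log10 q, the peak caller's adjusted significance, the order changed between replicates: 30.6 and 26.0 for the 5′ peak, against 32.5 and 24.4 for the 3′ peak.

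Cebpa encodes C/EBPα, the factor that granulocyte and monocyte progenitors need, and is a gene of a single exon (chr7:35119293-35121928). Its strongest peak (chr7:35120175-35120873 in replicate 1) had its summit near the end of the coding sequence, at −165 and −158 nt from the stop codon. Fold enrichment was 4.89 (counting interval 4.05 to 5.86) in replicate 1 and 4.32 (3.55 to 5.21) in replicate 2, so the intervals overlapped. A weaker peak in the 3′ UTR, 737 nt past the stop codon, was called in replicate 1 only, at 2.61-fold and −log10 q 7.20. Cebpb, also of 1 exon (chr2:167688915-167690418), encodes C/EBPβ, which acts in macrophages and in granulocyte production under stress. It had 1 peak, in the 3′ UTR 233 and 234 nt past the stop codon. Its fold enrichment was 5.43 (4.44 to 6.57) in replicate 1 and 7.54 (6.11 to 9.21) in replicate 2. IP reads were alike, at 104 and 94, whereas the background was 21 and 11 control reads.

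Gfi1, a zinc finger repressor that favours granulocytes over monocytes, lies on the minus strand (chr5:107716657-107726036, 7 exons). It carried a wide peak, of chr5:107716822-107717965 in replicate 1, over most of its last exon. The summits were 607 and 643 nt past the stop codon, farther downstream than any other summit found in both replicates. Fold enrichment was 5.07 and 5.03, with −log10 q of 44.6 and 42.6, and was thus nearly equal in the replicates. A narrow peak in the 5′ UTR was called in replicate 1 only. It rested on 10 IP reads over 1.68 control reads, and its fold of 4.46 had a counting interval from 2.35 to 7.86.

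The Ikaros family members differed widely in fold enrichment. Ikzf1 encodes Ikaros, a zinc finger factor needed for all lymphoid lineages (chr11:11685003-11772926, 8 exons). It had 2 peaks in its last exon of 4046 nt in each replicate. The peak in the coding sequence had a fold enrichment of 2.16 and 2.07, and the one in the 3′ UTR, 462 and 476 nt past the stop codon, of 1.99 and 1.82. In each replicate the intervals of the peaks overlapped, and all 4 values were low for the series. Of all exonic peaks, 8.06% in replicate 1 and 6.37% in replicate 2 were lower in fold than the stronger peak. The reads behind these peaks were many, with 184 and 177 from the IP and a background of 97 and 81 control reads at the coding summit.

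Ikzf2 encodes Helios, a relative of Ikaros known from regulatory T cells and early progenitors (chr1:69531214-69687245, minus strand, 8 exons). Its single peak lay in the last exon of 8279 nt, with the summit in the coding sequence at −143 and −161 nt from the stop codon. Fold enrichment was 12.6 in both replicates (counting intervals 9.67 to 16.0, and 9.75 to 16.0), the highest of the 10 genes. Of all exonic peaks, 98.6% and 97.5% were lower. The peak rested on 62 and 65 IP reads over a background of 4.60 and 4 control reads. The IP reads of Ikzf2 were thus fewer than those of Ikzf1, and its background was lower still.

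Id2 and Tcf3 encode proteins that act against each other. Tcf3 encodes the E proteins E12 and E47, which activate B and T cell genes, and Id2 encodes a helix-loop-helix protein without a DNA-binding region that ties up E proteins. Id2 (chr12:25093799-25097140, minus strand, 3 exons) had 2 peaks in each replicate. The one in the 3′ UTR had a fold enrichment of 5.85 (4.45 to 7.57) in replicate 1 and 8.57 (6.60 to 10.9) in replicate 2. That was the largest difference between the replicates among the 12 pairs of peaks, at a ratio of 1.46, and the counting intervals still overlapped. The other peak lay in exon 1, 64 and 67 nt past the start codon, at 3.46 and 3.66-fold. Tcf3 (chr10:80409514-80433647, minus strand, 19 exons) had 1 peak, in the 3′ UTR 185 and 190 nt past the stop codon. Its fold enrichment was 2.01 (1.74 to 2.33) and 1.79 (1.54 to 2.06), with 184 and 181 IP reads and a background as high as 104 and 96 control reads. In both replicates the interval of the Tcf3 peak lay below the intervals of both Id2 peaks.

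Ebf1, the activator that commits progenitors to the B cell lineage (chr11:44617317-45008091, 16 exons), had the least evidence. Its only peak, at chr11:45004693-45004923 in replicate 2, rested on 14 IP reads over 1 control read. The fold enrichment of 7.16 had a counting interval from 4.14 to 11.7, and −log10 q was 8.49. The summit lay 78 nt past the stop codon. With no peak and no read counts for Ebf1 in replicate 1, its m6A was not detected there, and depth and absence cannot be told apart.

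Satb1 encodes a chromatin organiser of T cells and of lymphoid-primed progenitors (chr17:51736187-51833290, minus strand, 11 exons). Its main peak lay in the last exon over the end of the coding sequence, with summits at −116 and −34 nt from the stop codon. Fold enrichment was 8.86 (7.17 to 10.8) and 7.62 (6.18 to 9.29), and −log10 q was 52.8 and 45.4, the highest of the 10 genes in each replicate. A second peak, in coding exon 7, was called in replicate 1 only and had the lowest −log10 q of the 28 peaks, 2.02, at 2.0-fold.

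**Figure D1:**
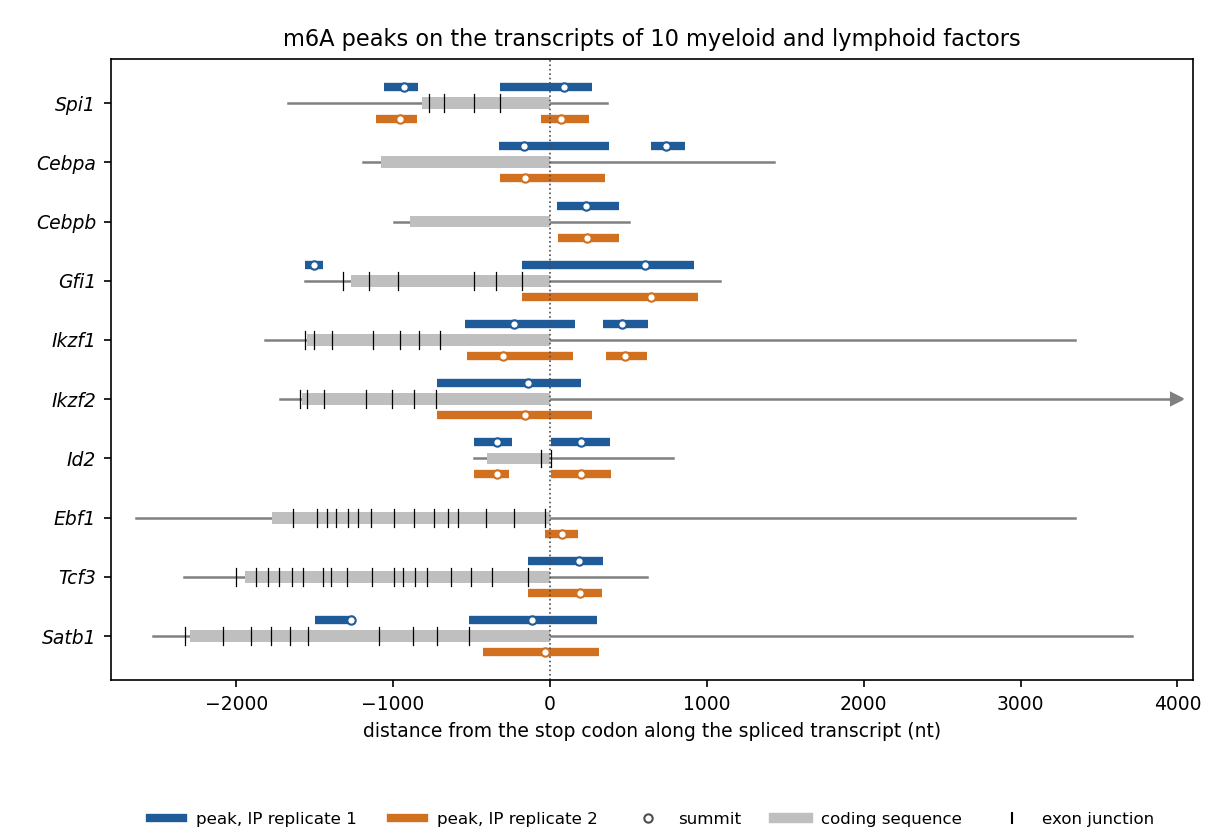
Position of each peak on the spliced transcript of the 10 genes, in nt from the stop codon, with the coding sequence in grey and exon junctions as ticks. Blue bars are peaks of IP replicate 1 and orange bars those of replicate 2, circles mark summits, and the arrow marks a 3′ UTR that runs on past the axis. Bars of both colours lie on 9 of the 10 genes, and Ebf1 has an orange bar only.

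The positions were then counted over all peaks of the 10 genes, on the principal transcript of each. The shares of all placed summits used the transcript of longest coding sequence instead. On that transcript the summits in the 3′ UTR of Id2 could not be placed. The last exon held 11 of 15 summits in replicate 1 and 11 of 13 in replicate 2, against 61.3% of all summits that could be placed on a transcript. Cebpa and Cebpb have only 1 exon, so their summits could lie nowhere else. These were 2 and 1 summits of Cebpa in replicates 1 and 2, and 1 of Cebpb in each. Within 200 nt of the stop codon lay 6 of 15 and 6 of 13, against 30.2% of all placed summits. The 3′ UTR peak of Id2 straddled that bound, with summits 198 and 201 nt past the stop codon. Within 200 nt of the start codon lay 2 summits in each replicate, those of the Spi1 5′ peak and the Id2 exon 1 peak, against 15.0% of all placed summits. Spi1, Ikzf1 and Id2 had 2 peaks in both replicates, and of all protein-coding genes with a peak in both, 35.2% had 2 or more in both.

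Of the 28 peaks, 24 (85.7%, 95% exact interval 67.3 to 96.0) overlapped a peak of the other replicate, beside 85.5% of all exonic peaks. The interval takes the peaks as independent, but the 24 made up 12 pairs, the peaks of a pair being found together by definition. The 4 peaks of 1 replicate were the 3′ UTR peak of Cebpa, the 5′ UTR peak of Gfi1, the exon 7 peak of Satb1 and the peak of Ebf1. Their −log10 q was between 2.02 and 8.49, whereas that of the 24 others was between 6.64 and 52.8. The 12 pairs had summits at a median distance of 15.5 bp and at most 82 bp, the latter in Satb1. The ratio of fold enrichment, replicate 2 over replicate 1, ran from 0.860 in Satb1 to 1.46 in Id2 and was above 1 in 5 pairs. In all 12 pairs the counting intervals of the replicates overlapped.

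**Figure D2:**
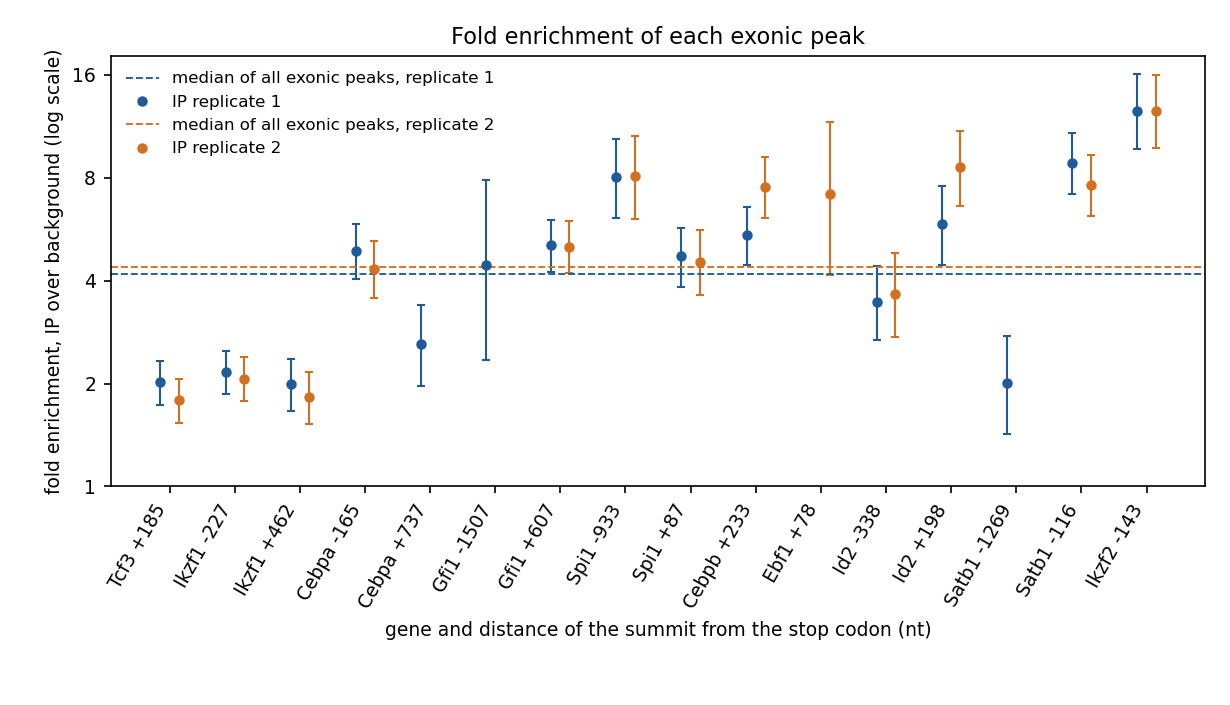
Fold enrichment of IP over background on a log scale for every exonic peak of the 10 genes, named by gene and by the distance of the summit from the stop codon in nt (replicate 1 where both have the peak). Points are single replicates, bars are 95% counting intervals of the IP reads, and dashed lines are the medians of all exonic peaks, 4.18 and 4.39. Tcf3, Ikzf1 and the exon 7 peak of Satb1 lie below both lines with intervals that end under 3. Ikzf2 lies highest at 12.6 in both replicates.

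By the mean of both replicates, the fold enrichment of the strongest peak (the one of highest −log10 q) ordered the genes as follows. Ikzf2 was highest at 12.6 ± 0.0117 (SD, n = 2), then Satb1 at 8.24 ± 0.879 and Id2 at 7.21 ± 1.92. Cebpb at 6.48 ± 1.49 and Spi1 at 6.40 ± 2.39 came next, the latter with a wide spread because the strongest peak was the 3′ one in replicate 1 and the 5′ one in replicate 2. Gfi1 at 5.05 ± 0.0287 and Cebpa at 4.61 ± 0.402 followed. The counting interval of Ikzf2 overlapped that of Satb1 in replicate 1, and those of Id2, Spi1 and Ebf1 in replicate 2. For Ikzf2 and Gfi1 the SD was far smaller than the width of the counting intervals. From Satb1 down to Gfi1, neighbours in this order differed by less than the larger of their SDs, and Gfi1 and Cebpa had overlapping counting intervals in each replicate. Ikzf1 at 2.11 ± 0.0648 and Tcf3 at 1.90 ± 0.161 were lowest, and in each replicate their counting intervals overlapped each other and those of no other gene's strongest peak. Ebf1, at 7.16 in 1 replicate, had no SD.

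Over all exonic peaks fold enrichment fell with the background. When each list was split into 4 parts by the background, the median fold was 6.63, 4.97, 3.80 and 2.54 from the lowest to the highest background in replicate 1, and 7.39, 5.33, 3.92 and 2.55 in replicate 2. The peaks of Ikzf1 and Tcf3 lay in the part of highest background in both replicates. Within that part, between 10.4% and 29.5% of peaks were lower in fold. The part was wide, from 35.6 to 199 control reads in replicate 1 and from 28 to 180 in replicate 2. Ikzf1 and Tcf3 had 68 to 104, and whether they were low for their own background was not tested. Ikzf2 lay in the part of lowest background, and 94.5% and 90.7% of the peaks there were lower. For the main peak of Satb1, in the second part, this was 94.6% and 83.1%. The Ebf1 peak, also in the part of lowest background, was near the middle of it, at 46.4%. The part of the background in the order of the genes was not tested.

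**Figure D3:**
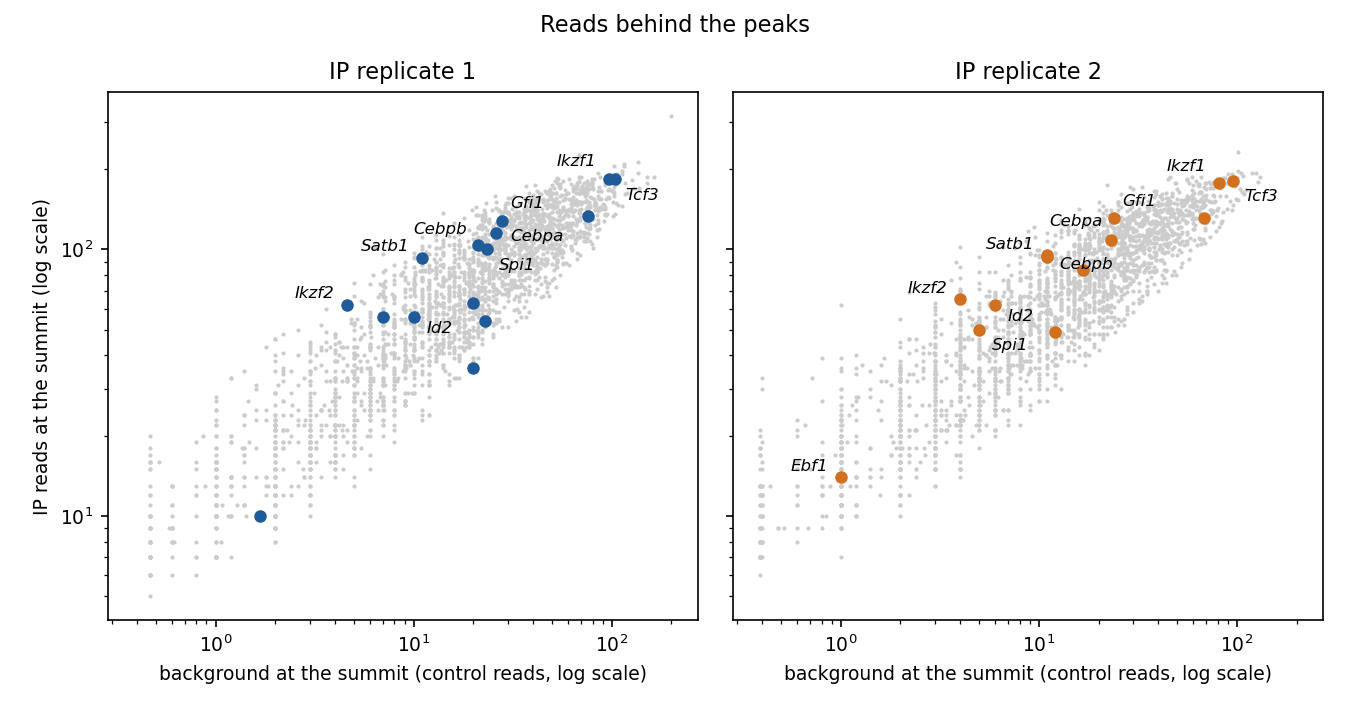
IP reads against background in control reads at the summit, both on log scales, for 1 in 5 of the exonic peaks of each replicate (grey) and for all peaks of the 10 genes (colour, with the name at the strongest peak by −log10 q). Ikzf1 and Tcf3 sit at the upper right, with 81 to 104 control reads at their strongest peaks, Ikzf2 at the upper left edge of the cloud with 4 to 4.60, and Ebf1 near the bottom with 14 IP reads over 1 control read.

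Nearly all summits of the 10 genes lay close to DRACH, and 9 of 26 lay close to GGAC. On the transcript with the longest coding sequence, 34.6% of summits (95% exact interval 17.2 to 55.7) had GGAC within 50 nt on the sense strand, against 56.0% of all placed summits. Of windows of the same length, 101 nt, tiled along transcripts with a peak, 33.2% held GGAC. Within 100 nt of the summit the shares were 73.1% for these genes and 76.1% for all summits. DRACH, which includes GGAC followed by A, C or T, lay within 50 nt of 96.2% of their summits, of 93.3% of all summits and in 86.2% of windows. The 2 summits in the 3′ UTR of Id2 could not be placed on its transcript of longest coding sequence. On principal transcripts, where all 28 summits could be placed, 11 (39.3%) had GGAC within 50 nt. Among transcripts of equal principal rank, the one that held most of the gene's summits was taken, which favoured their placement. The peaks of a gene share its sequence, and the members of a pair lie on the same site, so these are far fewer than 28 independent sequences.

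Somewhere under the peak, GGAC was present in 26 of 28 peaks, against 85.6% of all placed peaks. The exceptions were the Gfi1 5′ UTR peak and the Ebf1 peak, both of 1 replicate. At the median the peaks of the 10 genes were wider, at 484 and 487 bp in replicates 1 and 2. All exonic peaks had 397 and 413.5 bp, and the shares were not matched for width. In replicate 1 the peaks of the 9 genes held 61 of the 151 GGAC of their transcripts (40.4%) on 22.0% of the bases. For all transcripts with a placed summit these shares were 26.6% and 19.2%. In replicate 2 the 10 genes had 53 of 161 GGAC (32.9%) under peaks on 16.9% of the bases, beside 27.0% and 19.6%. Ikzf2 had 6 of its 26 GGAC under the peak, on 9.92% and 10.7% of its bases, and Satb1 6 and 5 of 14, on 17.1% and 11.9%. In Spi1, where the 3′ peak was wider in replicate 1, 11 and 7 of 16 GGAC lay under peaks.

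Other factors of the same kind were counted in the same way. Of 18 relatives of the 10 genes by family, 10 had an exonic peak in both replicates and 8 in neither. With the 10 genes themselves included, all 5 C/EBP genes had one in both replicates, as did Gfi1 and Gfi1b and all 3 E protein genes. In the Ikaros family 4 of 5 had one, and in the Id family 3 of 4. Of the 4 Ebf genes, Ebf1 had its peak in 1 replicate and the other 3 had none, and Spib and Spic had none. The strongest relatives by −log10 q were Ikzf5, an Ikaros relative, with a fold enrichment of 5.96 and 5.25, then Cebpd with 7.26 and 7.52 and Cebpe, a factor of late granulocyte maturation, with 6.28 and 5.78.

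Of 10 other factors of myeloid cells, 9 had a peak in both replicates, and Relb had none. The strongest were Rara, a retinoic acid receptor of granulocyte differentiation, with a fold enrichment of 13.7 and 15.7, then Runx1 and Zeb2, the latter with 4.56 and 4.25. The strongest peak of Runx1 differed between replicates, and its 2 peaks found in both had a fold enrichment of 5.56 and 7.50, and of 5.15 and 7.40. Of 27 other factors of lymphoid cells, 16 had a peak in both replicates, Irf4 had one in replicate 2 only, and 10 had none. The strongest were Sox4 with 6.95 and 8.25, Runx3 with 6.55 and 6.98, and Batf with 7.04 and 10.1. Beside the counts of these 3 lists, 30.9% of all protein-coding genes had a peak in both replicates. The lists were not matched for expression, and no test was made between them.

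**Figure D4:**
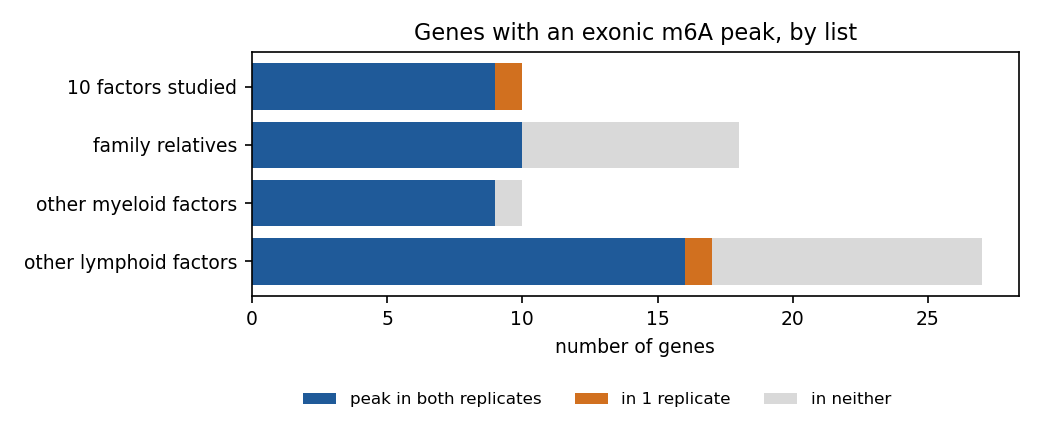
Number of genes with an exonic m6A peak in both replicates (blue), in 1 replicate (orange) or in neither (grey), for the 10 factors and 3 lists of other factors. The 10 factors have no grey part, the 10 other myeloid factors have 1 gene in it, and the 27 other lymphoid factors have 10.

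The cells could not be identified from expression, since a peak list shows only genes with m6A. Of 8 genes known from Kit+ progenitors, 4 had a peak in both replicates (Gata2, Lmo2, Tal1 and Cd34) and 4 had none, among them Kit itself. Of 7 erythroid genes, 4 had a peak in both replicates, with the highest −log10 q in Klf1, Hba-a1 (which has a near-identical copy) and Hbb-bt, while Tfrc had one in replicate 1 only and Gata1 had none. Of 6 hepatocyte genes, Apoa1 (fold enrichment 4.85 and 5.24) and Hnf4a (6.59 and 8.44) had one in both replicates, Afp in replicate 1 only, and Alb, Ttr and Serpina1a had none. Of all protein-coding genes, 30.9% had a peak in both replicates. Whether cells other than progenitors contributed to the peaks of the 10 factors was not tested.

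Depth was read from the peaks, as the library totals are unknown. At the median, an exonic peak rested on 68 and 66 IP reads over a background of 17 and 13 control reads. The peaks of the 10 genes rested on 10 to 184 IP reads in replicate 1 and 14 to 181 in replicate 2. Their median fold enrichment was 4.71 and 5.03, against 4.18 and 4.39 for all exonic peaks, and 9 of 15 and 8 of 13 were above the latter.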

How the data were processed

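The deposited peak lists, 1 per IP replicate, were made by the authors with HISAT2 on mouse GRCm38 (mm10) and MACS2 2.1.1.20160309 with the nomodel option, per the study's methods and the submitters' processing notes. Replicates were not pooled. The caller's threshold and control library are not given in the sources used here, and the smallest −log10 q was 1.31 and 1.30. The fold enrichment in the deposited lists is the ratio of IP to local background at the summit, and its −log10 q-value was deposited beside it, together with the −log10 p-value, all from the authors' MACS2 run. The input samples and their reads were not analysed here.

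Summits (start plus offset) were assigned to exons of the GENCODE M21 basic set, with coordinates counted from 1. Regions and sites were read on the principal transcript of each of the 10 genes. Among transcripts of equal principal rank, the one that held most of the gene's summits was taken. The background shares used the transcript of longest coding sequence and summits lying in exons of 1 gene. Peaks sharing at least 1 bp were called found in both replicates. IP reads and background were computed from the fold and the p-value under the formulas of MACS2. A whole number of reads fitted 100% of peaks (largest difference in −log10 p 0.000342), at 0.874 and 1.05 IP reads per control read. On 3952 simulated peaks the reads were recovered for 100%. The simulated backgrounds stayed below those of the Ikzf1 and Tcf3 peaks, so recovery at such backgrounds was not simulated. Counting intervals are exact 95% Poisson intervals of the IP reads with the background held fixed, and shares have exact Clopper-Pearson intervals. Both cover counting error only. Python 3.11.15, numpy 2.4.6, scipy 1.17.1, pandas 2.3.3 and matplotlib 3.10.9 were used.

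With 1 group of 2 IP samples no test between groups was possible. The 10 genes and the lists of other genes were chosen with earlier results of these data known. All 10 genes are named with every exonic peak, and of each other list the counts and the 3 genes of highest mean −log10 q. Genes of the other lists without a peak or with a peak in 1 replicate, and the order of some families, were named after their values were seen. Some genes of those lists are not reported here by name. Alternatives were other annotation sets, peak thresholds, overlap rules, motif windows and leaving out each replicate.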

Additional observations from a re-analysis of the deposited data

Results flagged for a closer look

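In 2 of the genes a peak lay inside the gene but outside the exons of the basic annotation, and was not counted above. In Spi1 both replicates had one (chr2:91089721-91090058 in replicate 1), with a fold enrichment of 6.71 (counting interval 4.73 to 9.25) in replicate 1 and 9.53 (6.85 to 12.9) in replicate 2. Behind these stood 35 and 39 IP reads, with a background of 5 and 3 control reads. Its summits were at −6139 and −6185 nt from the start of Spi1-201, in an exon of Spi1-202, a transcript of the comprehensive annotation only. In Gfi1 a peak of replicate 2 (chr5:107725132-107725385) had a fold enrichment of 6.36 (3.96 to 9.74) on 19 IP reads over 2 control reads. Its summit lay 572 nt past the start of the Gfi1 transcript, in the first intron and in an exon of A430072P03Rik, which is annotated on the opposite strand. The lists carry no strand, so the Gfi1 peak cannot be given to one of these genes, and replicate 1 had no peak there. No control peak list was at hand for either place.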

How the results depend on the processing

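Of 41 recomputed counts and shares, 36 stayed within 1.5 times the main count or within the replicate SD of the main share, and the other 5 were all of the share of summits with GGAC within 50 nt (34.6%). It was 37.5% with a minimum −log10 q of 5, 25% with a minimum fold enrichment of 4, 73.1% with a window of 100 nt, 96.2% with DRACH in place of GGAC, and 39.3% on principal transcripts, an alternative added after seeing the data. Leaving out each replicate gave 33.3% to 35.7%. With a minimum fold enrichment of 4, at which Ikzf1 and Tcf3 have no peak left, 7 genes had a peak in both replicates. The shares of all protein-coding genes and of all summits at these minimum values are not given here. The values at these minimums therefore show only how the results for the 10 genes moved. Leaving out each replicate gave 9 to 10 genes with a peak, and 80.0% to 92.3% of peaks found in the other replicate. An SD of 2 replicates always spans both, so the values without 1 replicate do not bear on stability. The fold enrichment of the strongest peak was the same under the other exon rules for all 10 genes, and taking the peak of highest fold changed it for Spi1 only, from 6.40 to 8.05. With 10 genes and 2 replicates, shares have wide intervals, and low read counts limit Ebf1 and the 5′ UTR peak of Gfi1.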
